A study of Homo sapiens with 6 samples.

Results

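The MHC class I chains and the proteins that load them with peptide were followed in BL-2, an established human cell line from Burkitt lymphoma, a tumour of B cells that resemble those of germinal centres. The members were 9 genes: the heavy chains HLA-B, HLA-C, HLA-E and HLA-F, the light chain B2M, the peptide transporter subunits TAP1 and TAP2, the loading protein TAPBP and the transactivator NLRC5. Every probe set whose platform annotation gives exactly 1 gene symbol, equal to one of these, was taken, which gave 25 of the 54613 probe sets tested and 9 of the 19775 genes they name. The LPS group was BL-2 cells stimulated for 6 h with lipopolysaccharide (LPS), the glycolipid of the Gram-negative bacterial cell surface, and the control group was BL-2 cells given no treatment. Each group had 3 samples, 1 array each. The labels give no LPS dose and do not say whether the samples were separate cultures, so the spread behind each p-value may be technical. All samples come from 1 cell line and thus from 1 tumour.

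Values are log2 signals per probe set, and a difference is LPS minus control on that scale. Array medians lay between 6.42 and 6.47 and the highest values between 14.28 and 14.81. The cells carried the B cell markers of their labelled identity. All 6 measured ones, with MS4A1, CD79A and PAX5 among them, lay above the 75th percentile of probe sets. All 5 measured germinal centre markers did so too. Below the median lay 5 of 6 monocyte markers and 5 of 7 T and NK cell markers. There too lay 4 of 8 fibroblast and epithelial markers and 2 of 3 erythroid and platelet markers. CD247 of the T and NK cell list and COL1A1 of the fibroblast and epithelial list lay above the 75th percentile. Of the 24 measured monocyte, T and NK cell, fibroblast and epithelial, and erythroid and platelet markers 0 passed the limma test and 0 had an unadjusted p under 0.05, and their differences ran from -0.11 to 0.09. Of the germinal centre markers all 5 had differences below 0, 4 had all LPS values below all control values, and 1 passed, MYBL1 with -0.56 (limma adjusted p = 0.0288). Over all 19775 genes 9728 lay below 0, 1542 had all LPS values below all control values, and 0.389% passed in either direction. BCL6, MME and CD38 gave -0.31, -0.32 and -0.33 without passing. The B cell markers ran from -0.38 for CD79A to 0.31 for PAX5. Of these 0 passed the limma test and 2 had an unadjusted p under 0.05 (9.56% of all genes had one). The part of these shifts in the class I values was not tested. The 18 probe sets for transcripts added at hybridisation parted the arrays into 2 sets, at 10.24 ± 0.045 in set A and 10.57 ± 0.051 in set B (SD, n = 3 each). Set A held LPS 1, LPS 2 and control 1, and set B held LPS 3, control 2 and control 3. Because the sets are not balanced between the groups, the differences of each member's brightest probe set within each set are given beside the pooled ones.

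An MHC class I molecule is a heavy chain held at the cell surface with the invariant light chain beta-2 microglobulin and a short peptide, which cytotoxic T cells inspect. Peptides cut by the proteasome are pumped into the endoplasmic reticulum by the TAP1-TAP2 transporter, and tapasin, the product of TAPBP, bridges the transporter to empty class I molecules. HLA-B and HLA-C are classical, highly variable chains, while HLA-E presents leader peptides of other class I chains to receptors of natural killer cells. Class I transcription is known to be driven through NF-kB and interferon response sites and through a promoter module bound by the RFX, CREB and NF-Y factors, on which NLRC5 acts.

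The available start regions of the members were searched for letters of some of these elements, with no RFX motif among them. Printed are those of HLA-B and HLA-C, of which probe sets rose, and of TAP1, which was higher without passing the test. Also printed is that of B2M, whose difference was near 0. Each runs from 250 bases before to 50 after a transcription start annotated by RefSeq (GRCh38.p14), and 7 of the 9 members matched this promoter table. Capitals mark matches, on either strand, to GAAANNGAAA (an interferon response core), GAAGTGAAA (a shorter form of it), GGGNNTTNCC (an NF-kB type site), CCAAT (the NF-Y core) and TGACG (the core of a CREB site). These letters were chosen with the member sequences in view. The windows are chr6:31357130-31357429 for HLA-B, chr6:31272043-31272342 for HLA-C and chr6:32853655-32853954 for TAP1, all read from the minus strand, and chr15:44711267-44711566 for B2M on the plus strand.
HLA-B: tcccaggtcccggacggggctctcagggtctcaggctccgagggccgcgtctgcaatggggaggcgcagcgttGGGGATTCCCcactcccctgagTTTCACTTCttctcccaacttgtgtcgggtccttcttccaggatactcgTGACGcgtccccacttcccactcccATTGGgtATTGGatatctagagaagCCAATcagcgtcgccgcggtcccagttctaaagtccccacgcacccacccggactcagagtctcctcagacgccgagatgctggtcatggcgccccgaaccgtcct
HLA-C: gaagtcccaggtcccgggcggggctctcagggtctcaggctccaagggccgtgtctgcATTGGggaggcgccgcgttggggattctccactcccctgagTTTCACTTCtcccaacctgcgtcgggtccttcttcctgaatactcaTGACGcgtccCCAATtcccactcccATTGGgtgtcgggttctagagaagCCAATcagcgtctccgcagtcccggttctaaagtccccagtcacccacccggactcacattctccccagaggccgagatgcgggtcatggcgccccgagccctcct
TAP1: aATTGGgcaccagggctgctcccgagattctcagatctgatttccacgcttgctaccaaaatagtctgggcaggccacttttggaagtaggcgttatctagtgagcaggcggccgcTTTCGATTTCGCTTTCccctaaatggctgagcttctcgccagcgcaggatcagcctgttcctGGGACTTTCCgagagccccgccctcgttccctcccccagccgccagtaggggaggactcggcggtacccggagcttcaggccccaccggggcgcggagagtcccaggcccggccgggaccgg
B2M: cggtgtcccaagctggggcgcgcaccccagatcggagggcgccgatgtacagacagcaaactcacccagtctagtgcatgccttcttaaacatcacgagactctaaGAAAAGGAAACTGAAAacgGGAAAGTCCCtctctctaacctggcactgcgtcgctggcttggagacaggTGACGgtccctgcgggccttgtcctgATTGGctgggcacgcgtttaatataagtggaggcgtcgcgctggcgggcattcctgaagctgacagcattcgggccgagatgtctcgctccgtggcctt

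HLA-B and HLA-C share elements in the same order. TTTCACTTC, which is GAAGTGAAA on the other strand, starts 155 bases before the start in HLA-B and 151 bases before it in HLA-C. TGACG follows at 106 and 105, then ATTGG, which is CCAAT on the other strand, at 81 and 80, and CCAAT at 56 in both. Other matches differ: HLA-B has an NF-kB type match at 177 and ATTGG at 74 that HLA-C lacks. HLA-C has CCAAT letters at 192 and 95 that HLA-B lacks. The 2 windows were identical at 88.5% of aligned positions, HLA-F reached 79.7% with HLA-B and 78.9% with HLA-C, and the other 25 pairs of member windows lay between 48.2% and 52.3% under the same alignment scores. The GAAGTGAAA form occurred in 0.51% of 35114 promoter windows of the same length. The longer interferon response core occurred in 3.57% of them and in 5 of the 7 matched members, B2M, TAP1, TAP2, TAPBP and HLA-F; its copies in B2M and in TAPBP overlap, as do those in TAP1. The NF-kB type letters stood in 4 matched members, HLA-B, B2M, TAP1 and TAPBP, against 5.68% of all windows. CCAAT stood in 5 and TGACG in 4 matched members, against 34.6% and 24.6% of all windows. The B2M match to the NF-kB type letters reads GGAAAGTCCC in the printed window, on the strand opposite to the motif as written. A second annotated start of TAP1, chr6:32852712-32853011, held none of these 5 motifs. A match is only a run of letters, and nothing on binding was measured here.

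After 6 h of LPS the class I heavy chains were higher, by 1.27-fold to 1.45-fold in 11 of their 13 probe sets, and probe sets of HLA-B, HLA-C and HLA-E passed the test. Their light chain B2M gave 1.01-fold and 1.02-fold by its bright probe sets. TAP1 was at 1.29-fold and TAPBP at 1.32-fold without passing, and TAP2 and the transactivator NLRC5 gave 1.10-fold and 1.04-fold by their brightest probe sets. Over all 25 member probe sets 4 passed, all of them higher, where 0.13% of all tested probe sets passed as higher (limma, Benjamini-Hochberg adjusted p under 0.05). The median difference was 0.35 over the member probe sets and 0.0029 over all probe sets. In 13 of the 25 all LPS values lay above all control values, which held for 7% of all probe sets. RNA of whole cultures was measured, so a change in the number of expressing cells and a change in RNA per cell cannot be told apart.

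**Figure D1:**
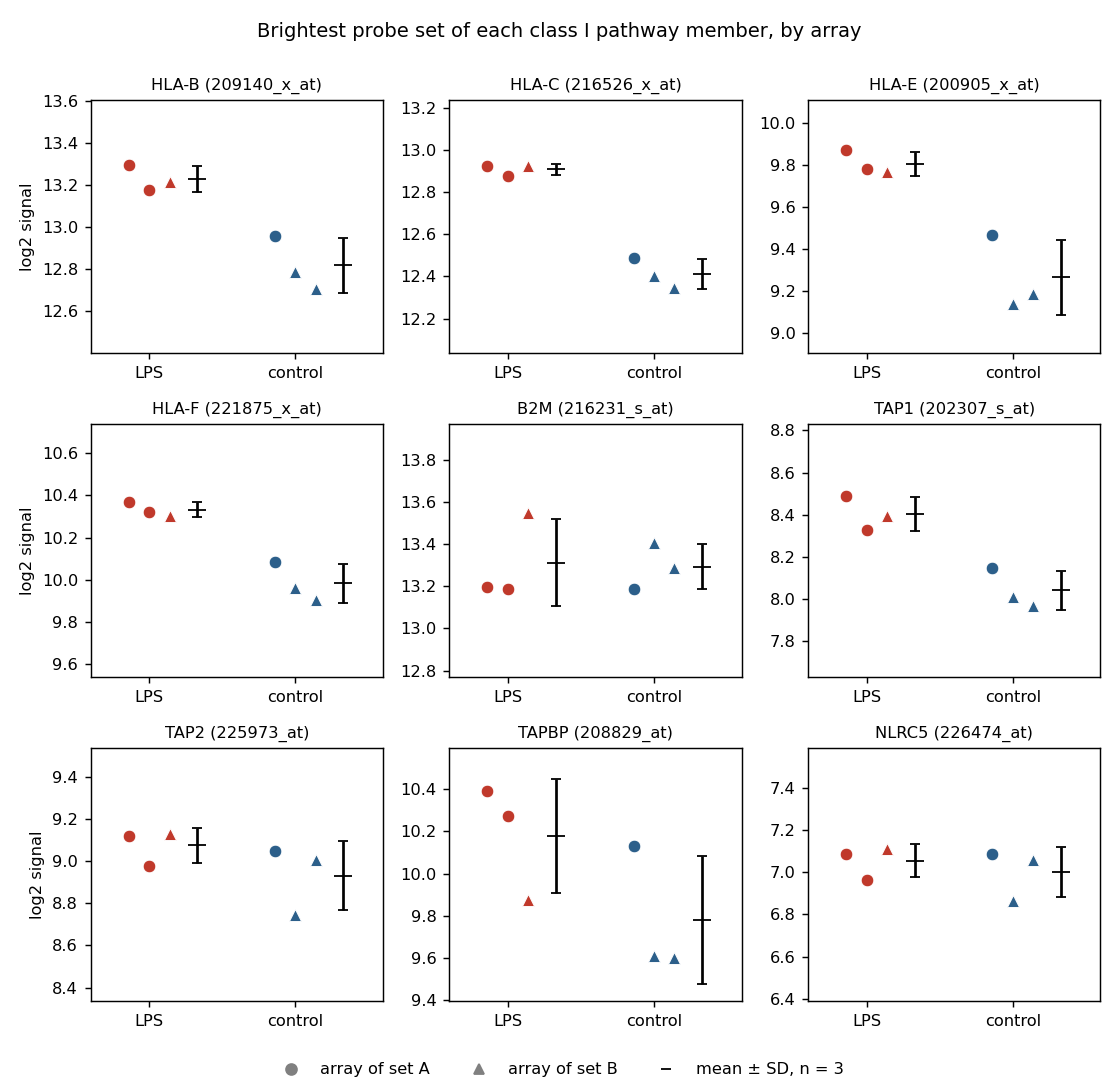
Log2 signal of the brightest probe set of each member on every array, LPS left and control right, with the mean ± SD (n = 3) beside each group and the array set shown by the symbol. The panels share a span of 1.2 log2 units but not a level; the groups separate for HLA-B, HLA-C, HLA-E, HLA-F and TAP1 and overlap for B2M, TAP2, TAPBP and NLRC5.

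Among the classical heavy chains, HLA-C read 12.92, 12.88 and 12.92 on LPS arrays 1 to 3, against 12.49, 12.40 and 12.35 on control arrays 1 to 3, by its brightest probe set, 216526_x_at. The LPS arrays sat close together and clear of every control, with control 1 the highest of the controls. The difference was 0.49 (SE 0.090, 95% interval 0.30 to 0.69, limma adjusted p = 0.0368). A second HLA-C probe set, 208812_x_at, also rose, by 0.49 (adjusted p = 0.0423), and the other two gave 0.49 (adjusted p = 0.06) and 0.44 (adjusted p = 0.1). Within the array sets 216526_x_at gave 0.41 in set A and 0.55 in set B. All 4 HLA-C probe sets thus lay within 0.44 to 0.49.

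HLA-B passed by 1 of its 3 probe sets. That one, 211911_x_at, read 12.47, 12.37 and 12.36 on the LPS arrays, against 11.93, 11.91 and 11.82 on the control arrays. The groups were apart by a gap wider than the range within either, and the difference was 0.51 (SE 0.091, adjusted p = 0.0326). The brightest HLA-B probe set, 209140_x_at, read 13.30, 13.18 and 13.21 in LPS cells, against 12.96, 12.79 and 12.71 in control cells. Its groups did not overlap either, but its difference of 0.41 did not pass (SE 0.097, adjusted p = 0.131), with 0.28 within set A and 0.47 within set B. For the third HLA-B probe set it was 0.47 (adjusted p = 0.0791).

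HLA-E, a chain read by natural killer cells, had the highest difference among the 25 member probe sets. By 200905_x_at it read 9.87, 9.78 and 9.76 in LPS cells, against 9.47, 9.14 and 9.19 in control cells. Every LPS value exceeded every control value, although control 1 stood well above the other controls, and the rise was 0.54 (SE 0.099, 95% interval 0.33 to 0.75, adjusted p = 0.0403), with 0.36 within set A and 0.60 within set B. The HLA-E probe set 217456_x_at gave 0.42 (adjusted p = 0.108). The HLA-E probe set that carries no cross-hybridisation suffix, 200904_at, read 7.91, 7.90 and 7.76 in LPS cells, against 7.66, 7.46 and 7.54 in control cells. Its groups were also apart, at a smaller difference of 0.30 that did not pass (SE 0.077, 95% interval 0.14 to 0.47, adjusted p = 0.17).

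HLA-F, a further non-classical chain, read 10.37, 10.32 and 10.30 in LPS cells, against 10.09, 9.96 and 9.90 in control cells by 221875_x_at. The groups did not overlap, and the difference of 0.35 did not pass (SE 0.089, adjusted p = 0.177), with 0.26 within set A and 0.37 within set B. A second probe set, 204806_x_at, gave 0.37 (adjusted p = 0.167). The third, 221978_at, stood at 6.35 ± 0.067 in LPS cells and 6.30 ± 0.023 in control cells (SD, n = 3 each), below the array medians, with a difference of 0.05 and overlapping groups.

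The annotation marks 11 of the 13 heavy chain probe sets with the suffix _x_at, which means that their probes may also bind transcripts of related genes, and the chains resemble each other closely. All HLA-B and HLA-C probe sets carry it, so the values above cannot be assigned to 1 chain with certainty. All 4 that passed carry the suffix, while over the array 0.309% of probe sets with it passed as higher. The _x_at heavy chain probe sets had a median difference of 0.47, against 0.0019 for all 4207 probe sets with that suffix. Of the 9 member probe sets with neither _x_at nor _s_at, 0 passed the limma test, 2 had an unadjusted p under 0.05 (HLA-E and TAPBP; 8.08% of all probe sets had one), and the median difference was 0.07. How much of one chain's signal came from another was not tested.

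**Figure D2:**
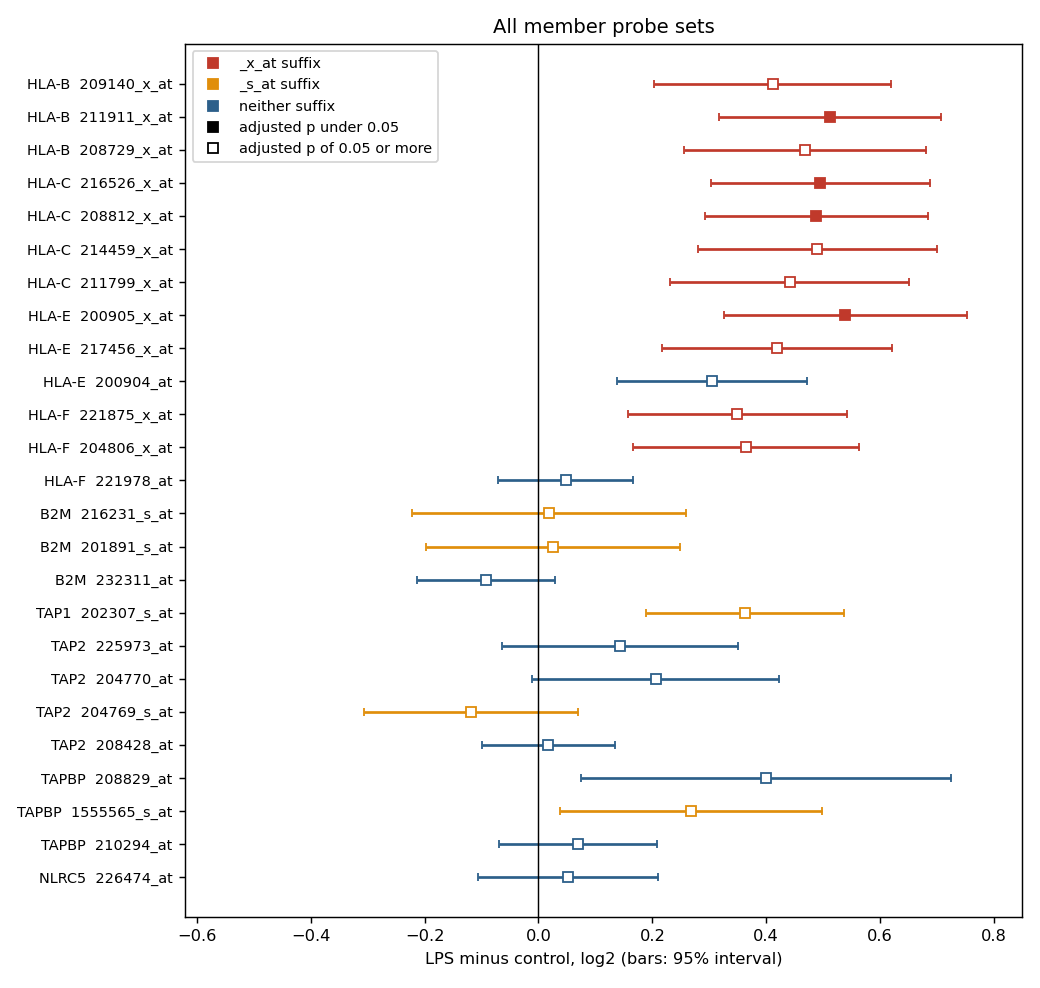
Difference, LPS minus control on the log2 scale, of all 25 member probe sets with 95% intervals, coloured by the suffix of the probe set and filled where the adjusted p was under 0.05. The 4 filled points are _x_at probe sets of HLA-B, HLA-C and HLA-E. All B2M, TAP2 and NLRC5 intervals include 0, as do those of HLA-F 221978_at and TAPBP 210294_at.

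B2M, the shared light chain, had differences near 0. By 216231_s_at it read 13.20, 13.19 and 13.55 in LPS cells, against 13.19, 13.40 and 13.29 in control cells. LPS 3 was the highest array and the other LPS arrays were among the lowest, so the groups overlapped, and the difference was 0.02 (SE 0.11, 95% interval -0.22 to 0.26, adjusted p = 0.986), with 0.0037 within set A and 0.20 within set B. The probe set 201891_s_at gave 0.03 (95% interval -0.20 to 0.25), and the dim 232311_at gave -0.09 (95% interval -0.21 to 0.03). The bright B2M probe sets both stood at the 99.6th percentile of all probe sets by level, and whether their signal was near saturation was not tested.

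The contrast between heavy and light chain was taken on each array as the log2 signal of a member minus that of B2M, by the brightest probe sets, a comparison chosen after the values were seen. For HLA-C it was -0.27, -0.31 and -0.63 in LPS cells, against -0.70, -1.001 and -0.94 in control cells. All LPS values exceeded all control values, and the shift was 0.48 (exact permutation test, two-sided, p = 0.1, adjusted p = 0.267 over 8 members, n = 3 per group). With 3 arrays against 3 this test cannot go below 0.1. The shift was 0.52 for HLA-E and 0.39 for HLA-B, with overlapping groups (exact p = 0.2 for each). TAPBP gave 0.38, TAP1 0.35 and HLA-F 0.33, also with overlapping groups (exact p = 0.2 for each). The shift was 0.13 for TAP2 (exact p = 0.6) and 0.03 for NLRC5 (exact p = 0.8). Within sets A and B it was 0.41 and 0.34 for HLA-C, 0.35 and 0.40 for HLA-E, and 0.27 and 0.26 for HLA-B. For all 8 members both within-set shifts lay below the pooled one. B2M itself was higher in set B, by 0.26 in the fit with array set.

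Among the loading genes, the groups were apart for TAP1. This ATP-driven transporter subunit has 1 probe set, 202307_s_at, which read 8.49, 8.33 and 8.39 in LPS cells, against 8.15, 8.01 and 7.97 in control cells. The groups did not overlap, and the difference was 0.36 (SE 0.081, 95% interval 0.19 to 0.54, adjusted p = 0.104), with 0.26 within set A and 0.41 within set B. Its partner subunit TAP2 read 9.12, 8.98 and 9.13 in LPS cells, against 9.05, 8.74 and 9.01 in control cells by 225973_at. Those groups overlapped, with a difference of 0.14 (95% interval -0.06 to 0.35, adjusted p = 0.773), with 0.0028 within set A and 0.25 within set B. The other TAP2 probe sets gave 0.21, -0.12 and 0.02, so they differed in sign, and none passed.

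TAPBP, which encodes tapasin, read 10.39, 10.27 and 9.87 in LPS cells, against 10.13, 9.61 and 9.60 in control cells by 208829_at. The arrays of set A were high in both groups and those of set B low, and the groups overlapped. The difference was 0.40 (SE 0.15, 95% interval 0.07 to 0.72, adjusted p = 0.491), with 0.20 within set A and 0.27 within set B. Its second probe set gave 0.27 (adjusted p = 0.528), and the dim remaining one 0.07 (adjusted p = 0.86).

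NLRC5, the class I transactivator, has 1 probe set with a single symbol, 226474_at. It read 7.09, 6.96 and 7.11 in LPS cells, against 7.09, 6.87 and 7.06 in control cells. The arrays interleaved, and the difference was 0.05 (SE 0.074, 95% interval -0.11 to 0.21, adjusted p = 0.921), with -0.06 within set A and 0.15 within set B. Its level lay at the 69.4th percentile of all probe sets.

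**Figure D3:**
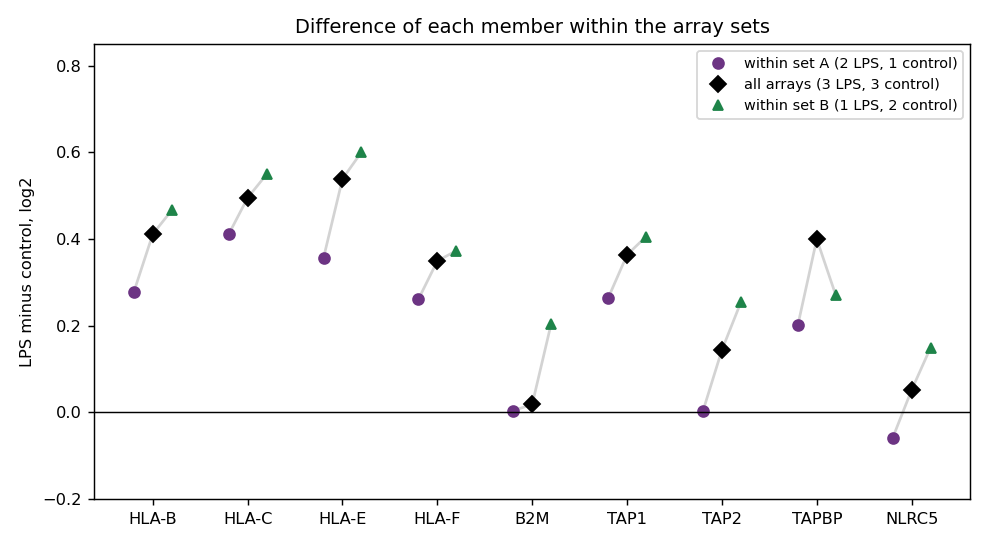
Difference, LPS minus control on the log2 scale, by the brightest probe set of each member, within array set A, over all arrays and within array set B. HLA-B, HLA-C, HLA-E, HLA-F and TAP1 lie between 0.26 and 0.60 in both sets, and B2M, TAP2 and NLRC5 lie near or below 0 in set A.

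The array sets moved with these values. Over the 11 _x_at heavy chain probe sets, set B minus set A had a median of -0.04 within the LPS arrays and -0.21 within the control arrays, and control 1, the only control of set A, was the highest control in all 11. Within set A their differences ran from 0.24 to 0.49 and within set B from 0.37 to 0.60, the same sign being fixed where all LPS values exceed all controls. With array set as a term of the fit, 12 member probe sets passed as higher, where 0.628% of all probe sets did. These were all 11 _x_at heavy chain probe sets, with adjusted p from 4.59e-05 to 0.028, and TAP1 (0.33, adjusted p = 0.025). B2M gave 0.10 and NLRC5 0.05 in that fit, with adjusted p of 0.593 and 0.921. Each within-set value rests on 1 control in set A and on 1 LPS array in set B.

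The number of passing member probe sets rested on which arrays were used. It was 0 without control 2, without control 3, without LPS 1 or without LPS 2, 2 without LPS 3 and 9 without control 1. Calls among all 54613 probe sets moved the same way, from 144 with every array kept. Dropping a control array gave 374 (control 1), 46 (control 2) and 14 (control 3). Dropping an LPS array gave 44 (LPS 1), 10 (LPS 2) and 120 (LPS 3). The swing in the member counts was thus not particular to the members. The median difference over the member probe sets lay between 0.29 and 0.40 in these fits. For the HLA-C probe set 216526_x_at the difference lay between 0.46 and 0.53 with adjusted p from 0.0282 to 0.298, and for the HLA-E probe set 200905_x_at between 0.48 and 0.64 with adjusted p from 0.00446 to 0.304.

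A wider list of the class I pathway was described by the brightest probe set of each gene. Of 51 listed genes 43 were measured, 1 rose and 0 fell, where 0.389% of all genes passed in either direction. The median was -0.02, against 0.0016 over all genes, with 21 genes above 0 and 22 below, where 50.8% of all genes lay above 0.

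Among 12 other class I and class I-like chains 0 passed in the limma fit and 2 had an unadjusted p under 0.05 (9.56% over all genes), HLA-G at 0.39 (adjusted p = 0.155) and the pseudogene HLA-J at 0.27 (adjusted p = 0.353). HLA-G read 11.53, 11.53 and 11.39 in LPS cells, against 11.21, 11.01 and 11.05 in control cells by 211528_x_at. With array set in the limma fit this HLA-G probe set gave 0.34 (adjusted p = 0.00815) and HLA-J 0.23 (adjusted p = 0.168). All probe sets of both genes carry the _x_at suffix, so they may hold signal of the members. HFE, a class I-like chain of iron regulation, has 11 probe sets with the same suffix, which ran from -0.08 to 0.04. They were much dimmer, with group means from 6.07 to 6.96. The lowest group mean of an _x_at heavy chain probe set was 9.05. The stress ligands MICA and MICB gave 0.07 and 0.11.

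Of the proteasome genes 2 of 8 lay above 0, with a median of -0.06 and 0 passing in the limma fit or at an unadjusted p under 0.05. PSME3, a subunit of a proteasome activator, gave 0.22 (adjusted p = 0.666). PSMB9, an immunoproteasome subunit, read 9.87, 9.63 and 10.04 in LPS cells, against 10.05, 10.02 and 10.07 in control cells, a difference of -0.20 (adjusted p = 0.678). PSMB9 and PSMB8, another immunoproteasome subunit at -0.14, are the protein-coding genes on either side of TAP1 on chromosome 6. TAP1 minus PSMB9 on each array was -1.38, -1.31 and -1.65 in LPS cells, against -1.91, -2.01 and -2.10 in control cells. All LPS values exceeded all control values in this contrast, which was chosen after the values were seen, and the shift was 0.56 (exact permutation test, two-sided, p = 0.1, the smallest possible; n = 3 per group). TAP1 minus PSMB8 shifted by 0.50 (exact p = 0.1).

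Peptide trimming enzymes had 1 of 5 above 0 and 0 passing in the limma fit, also at an unadjusted p under 0.05. ERAP2, an aminopeptidase of the endoplasmic reticulum, read 8.68, 8.66 and 8.43 in LPS cells, against 9.04, 8.69 and 8.71 in control cells. All LPS values were below all control values, and the difference was -0.22 (SE 0.11, adjusted p = 0.637). With array set in the fit it fell by 0.32 (adjusted p = 0.0309). TPP2, a cytosolic peptidase, gave -0.15 (adjusted p = 0.725).

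All 4 loading chaperones were above 0, with a median of 0.22, and 0 passed in the limma fit, with 2 of the 4 at an unadjusted p under 0.05 (9.56% over all genes). CALR, calreticulin, which holds the newly assembled class I complex, gave 0.29 (SE 0.13, adjusted p = 0.571), with 0.09 within set A and 0.28 within set B. TAPBPL, a tapasin relative, read 7.45, 7.49 and 7.34 in LPS cells, against 7.25, 7.14 and 7.16 in control cells. Its groups did not overlap, and the difference of 0.24 did not pass (SE 0.069, adjusted p = 0.252).

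Among 10 measured regulators 1 rose. CIITA, the class II transactivator, which is related to NLRC5, read 7.22, 7.401 and 7.31 in LPS cells, against 6.84, 6.90 and 6.99 in control cells. The groups were apart, and CIITA rose by 0.40 (SE 0.070, adjusted p = 0.0316). A second CIITA probe set gave 0.15 (adjusted p = 0.554), and the remaining one 0.10 (adjusted p = 0.751). RFX5, a subunit of the RFX complex that binds both class I and class II promoters, read 11.54, 11.38 and 11.54 in LPS cells, against 11.16, 10.93 and 11.19 in control cells. Its difference of 0.39 did not pass (SE 0.10, adjusted p = 0.186), and its partners RFXAP and RFXANK gave -0.04 and -0.13. With array set in the fit RFX5 was at 0.39 with an adjusted p of 0.00924. IRF1, an interferon-induced factor known to act on class I promoters, gave 0.07 (adjusted p = 0.883).

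Of the receptors that recognise class I, 4 were measured and 0 passed in the limma fit, also at an unadjusted p under 0.05. LILRB1 gave -0.09 and CD8A -0.04, with LPS means of 6.67 and 6.26 and control means of 6.77 and 6.29.

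**Figure D4:**
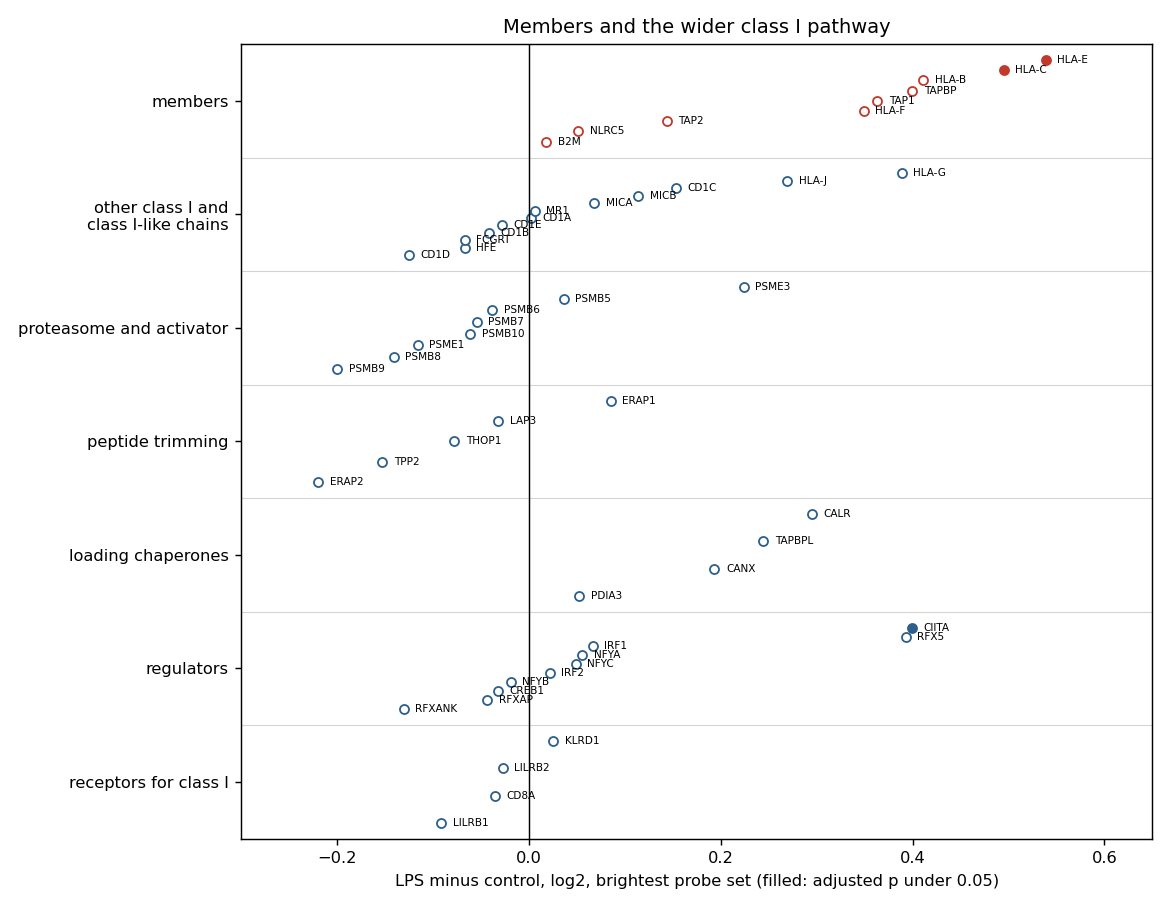
Difference, LPS minus control on the log2 scale, of the members and of the 6 groups of the wider class I pathway, 1 point per gene by its brightest probe set, filled where the adjusted p was under 0.05. HLA-E, HLA-C and CIITA are filled, and the proteasome and trimming genes lie mostly below 0.

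The members resembled each other to different degrees across the 6 arrays. Pearson's r between the brightest probe set of a member and the mean of the other 8, each centred, was 0.95 to 0.99 for HLA-B, HLA-C, HLA-E, HLA-F and TAP1. It was 0.73 for TAPBP, 0.69 for TAP2, 0.48 for NLRC5 and -0.18 for B2M. The non-member genes most like the mean of the members were SUMO3, TRAPPC13, LCP1, PGRMC2 and HLA-DQB1, with r from 0.994 to 0.997 over the 6 arrays. Of these HLA-DQB1, a class II chain, rose (0.72, adjusted p = 0.0129). These are descriptions over few points that share the group difference and the array sets. Of 12645 genes above the median level 465 had an r over 0.9. The heavy chain probe sets used here all carry the _x_at suffix and may hold each other's signal, whose part in r was not tested.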

How the data were processed

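Gene expression was measured in 6 BL-2 samples, 3 per group, each on 1 Affymetrix array. A column kit served to extract the RNA, and in vitro transcription to add biotin, per the labels' protocols. The deposited values were read as log2, since all lie between 5.46 and 14.81; the log base is inferred, and for background correction, summary and normalisation the sources used here name no method. Left out were 62 array control probe sets, and 54613 were tested. Symbols come from the platform annotation, checked against RefSeq gene identifiers: 41091 tested probe sets had 1 symbol, 1801 several and 11721 none.

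The test was limma 3.58.1 in R 4.3.3, with group as the only term, an intensity trend in the empirical Bayes step, two-sided p-values adjusted by Benjamini-Hochberg over the 54613 probe sets, and a threshold of 0.05. The number of arrays limits precision; the median SE was 0.063. A gene's brightest probe set has the highest mean over the 6 arrays. Steps were tested on simulated data. The members and lists were chosen with earlier results of these data known. Named are all members, and from each pathway group every passing gene and the 2 with the largest absolute difference; the B cell and germinal centre markers, HFE, MICA, MICB, PSMB8, IRF1, RFXAP and RFXANK were added after their values were seen. Genes most like the members were the 5 with the highest correlation among genes above the median level. Array sets were parted at the widest gap, 0.22, in the mean of the hybridisation controls. Promoter windows were aligned globally with Biopython 1.88, with scores of 1 for a match, -1 for a mismatch, -2 to open a gap and -0.5 to extend it. Alternatives were blocks on replicate number or array set, 2 normalisations, a filter on dim probe sets, no trend, array weights, another threshold, leaving out suffixed probe sets, and leaving out each array.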

Additional observations from a re-analysis of the deposited data

How the results depend on the processing

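The number of member probe sets that passed, 4 as reported, was 11 with a replicate block, 12 with array set as a block, 7 after quantile normalisation, 2 after median centring, 8 without an intensity trend and 10 with array weights. It was 0 without the _x_at and _s_at probe sets, where 2 of the 9 left had an unadjusted p under 0.05 in the limma fit with all probe sets, and ran from 0 to 9 when an array was left out. Over all probe sets 144 passed as reported, 498 with a replicate block, 734 with array set as a block, 292 after quantile normalisation, 309 with array weights and 265 at a threshold of 0.1, and 10 to 374 when an array was left out. In the wider list the count of 1 became 3 with a replicate block, 4 with array set as a block (3 higher, 1 lower) and 2 after quantile normalisation, and 0 to 1 when an array was left out. The median difference of the member probe sets, 0.35, was 0.24 within set A, 0.27 within set B and 0.29 to 0.40 when an array was left out. No called member probe set changed sign in any of these fits. Since all their LPS values exceed all controls, this was fixed for fits that left out arrays or used 1 array set. Uncalled ones did change sign, among them B2M 216231_s_at (from -0.10 to 0.10) and NLRC5 (from -0.02 to 0.10). Of 323 values of single member probe sets under an alternative 20 lost and 33 gained their call. The cause of these shifts was not tested, except that the fit without suffixes holds fewer probe sets. Deviations from the group means of same-numbered arrays correlated at 0.44, -0.04 and 0.23. The arrays numbered 1 share set A and those numbered 3 share set B, while those numbered 2 do not share a set. These correlations thus cannot tell a pairing by number from the array sets. The labels do not say that a number marks a shared culture, and the counts with a replicate block are given here only. Depth of signal limits the dim probe sets, HLA-F 221978_at and TAP2 208428_at, which the filter on dim probe sets removed.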

Other observations

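CALR, which was named for its brightest probe set, had larger differences by its dimmer ones, chosen here after their values were seen. The probe set 214315_x_at read 10.09, 10.004 and 9.29 in LPS cells, against 9.76, 8.84 and 8.68 in control cells. The arrays of set A were the 3 highest, and the difference of 0.70 did not pass the limma test (SE 0.24, adjusted p = 0.412). Set A alone gave 0.28 and set B alone 0.53, and the fit with array set gave 0.41 (adjusted p = 0.00834). A further CALR probe set, 200935_at, gave 0.50 (adjusted p = 0.617).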
